A study of Mus musculus with 2 samples.

Results

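The genes of ciliary transport and of the ciliary axoneme were taken as the protein-coding mouse genes whose symbol is Ift, Bbs, Tctn, Rsph, Dnah or Dnai/Dnaic followed by a digit. The rule found 49 of the 21851 protein-coding genes of the GENCODE M21 basic annotation on the main chromosomes of build mm10. Of these, 24 serve the primary cilium (14 Ift, 8 Bbs and 2 Tctn genes) and 25 serve motile cilia (8 Rsph, 15 Dnah and 2 Dnaic genes). The rule used names alone and no measured value. Chromatin accessibility was measured by DNase-seq, in which DNase I cuts open chromatin and the cut sites are read by sequencing, in hindbrain tissue of 11.5-day B6NCrl mouse embryos, pooled from both sexes and described as healthy. The 2 libraries, replicates 1 and 2, were labelled biological replicates from separate biosamples of 1 group, and no treatment or genetic change was labelled, so the comparison available was between classes of genes within the same tissue.

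Almost every vertebrate cell can build a primary cilium, a single immotile antenna that neural progenitors need for hedgehog signalling. Intraflagellar transport (IFT) trains carry cargo along it, the BBSome adaptor carries membrane proteins, and tectonic proteins help to form the gate at its base, the transition zone. Motile cilia add outer and inner dynein arms and radial spokes to the axoneme, and in the brain they are borne by ependymal and choroid plexus cells, most of which mature after this stage. RFX transcription factors are known regulators of both kinds of ciliary gene, and FOXJ1 of the motile kind.

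The known RFX target sequence, the X-box, is an inverted repeat, and its matches are shown first because they were counted more often in primary than in motile cilium promoters. The letters searched were GTNNCC, a gap of 2 bases, and GGNNAC, between 250 bases before and 50 bases after the principal start of each gene. The pattern reads the same on both strands. Of the primary cilium promoters 7 of 24 held it (29.2%, exact 95% interval 12.6 to 51.1), of the motile cilium promoters 1 of 25 (4.0%, 0.101 to 20.4), and of all promoters 1.91%. The intervals of the classes overlapped. The 9 matches in those 8 promoters are printed 5′ to 3′ on the strand of the gene, with 30 bases each, the 14 matched letters in capitals, and positions in mm10.
Ift22 (chr5:136908079-136908108, plus strand): ctgtcaggGTTTCCTGGGCTACtgcgcagc
Ift22 (chr5:136908109-136908138, plus strand): tgttcccgGTCGCCGTGGAAACtgaccagc
Ift57 (chr16:49699199-49699228, plus strand): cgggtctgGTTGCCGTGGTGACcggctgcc
Ift140 (chr17:25016392-25016421, plus strand): tgcacacgGTCACCCAGGGAACcctgtgcc
Bbs1 (chr19:4906605-4906634, minus strand): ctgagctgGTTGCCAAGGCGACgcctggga
Bbs4 (chr9:59353464-59353493, minus strand): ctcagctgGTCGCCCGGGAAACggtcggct
Bbs7 (chr3:36613489-36613518, minus strand): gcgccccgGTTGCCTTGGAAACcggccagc
Tctn1 (chr5:122264403-122264432, minus strand): ctgtgactGTTGCCCGGGCAACagacgggc
Rsph9 (chr17:46144185-46144214, minus strand): ggctcaggGTCTCCATGGAGACagcttcta
In 6 of the 8 promoters a match lay inside the gene's highest peak in at least 1 library: in both libraries at Ift22, Ift57, Bbs1, Bbs4 and Rsph9, and in replicate 2 at Tctn1. At Bbs7 the match centre lay 73 bp from the peak centre, and the match ran past the edge of the 150 bp peak. At Ift140 the match lay 436 bp (replicate 1) and 476 bp (replicate 2) from the centre of the highest peak, but inside a lower site shared by both libraries (chr17:25016316-25016465, heights 74 and 115). A match describes letters in the reference sequence, and binding was not measured.

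The single arm GTTGCC, sought on both strands in the same window, was found in 11 of 24 primary cilium promoters (45.8%, exact 95% interval 25.6 to 67.2), 5 of 25 motile cilium promoters (20%, 6.83 to 40.7) and 12.0% of all promoters. With a window of 150 bases to each side of the start, the share was 45.8% of primary cilium promoters, 28% of motile cilium promoters and 12.1% of all promoters. The arm overlaps the inverted repeat, since GTTGCC is one way of filling GTNNCC. The primary cilium genes with it were Ift27, Ift57, Ift80, Ift81, Ift88, Ift172, Bbs1, Bbs5, Bbs7, Tctn1 and Tctn3, and the motile cilium genes were Rsph3b, Dnah7a, Dnah7b, Dnah10 and Dnaic2. With a gap of 3 bases in place of 2 the inverted repeat was found in 0 primary cilium, 0 motile cilium and 0.664% of all promoters. The forkhead letters TGTTTAC, on both strands, were found in 0 primary cilium promoters, in 1 motile cilium promoter, that of Dnah17, and in 2.96% of all promoters.

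**Figure D1:**
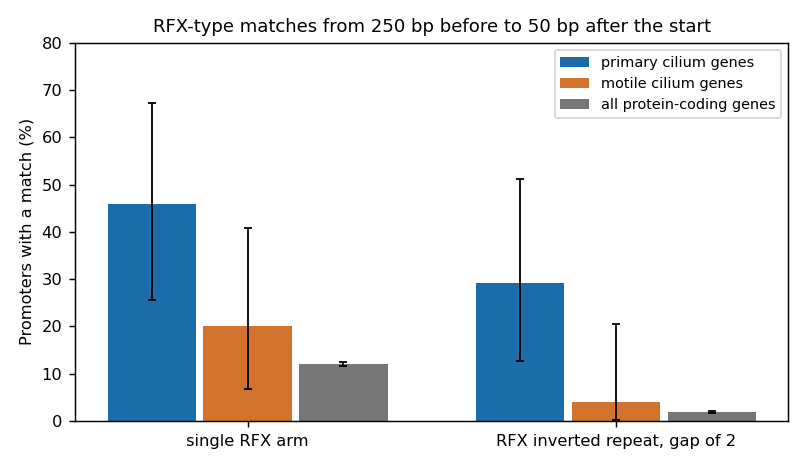
Share of promoters (vertical axis, percent) with the single RFX arm (left) and with the RFX inverted repeat with a gap of 2 bases (right), for primary cilium genes, motile cilium genes and all protein-coding genes; bars start at 0 and error bars are exact 95% intervals. The primary cilium bar was the highest for both motifs (45.8% and 29.2%), and the motile bar for the inverted repeat (4.0%) had an interval that reached below the 1.91% of all promoters.

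A gene was called open in a library when a 150 bp peak of that library lay within 1 kb of any of its annotated starts, and open in both when peaks of both libraries overlapped there. All 24 primary cilium genes were open in both libraries (100%, exact 95% interval 85.8 to 100), against 18 of 25 motile cilium genes (72.0%, 50.6 to 87.9). Over all protein-coding genes 65.9% were open in both. In replicate 1 alone, 24 primary cilium genes and 19 motile cilium genes (76.0%) were open, beside 67.0% of all genes. In replicate 2 alone the counts were again 24 and 19, beside 69.5% of all genes. The primary cilium share was therefore 24 percentage points higher than the motile share in each library and 28 points higher for both together (Newcombe 95% interval 8.54 to 47.6). These intervals cover counting error over genes, which are not replicates, and with 1 group of 2 libraries no test over samples was possible. The motile share lay close to that of all genes. By family, 14 of 14 Ift, 8 of 8 Bbs, 2 of 2 Tctn, 8 of 8 Rsph, 8 of 15 Dnah and 2 of 2 Dnaic genes were open in both libraries, so that all 7 members not open in both, called closed here, were dynein heavy chain genes.

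**Figure D2:**
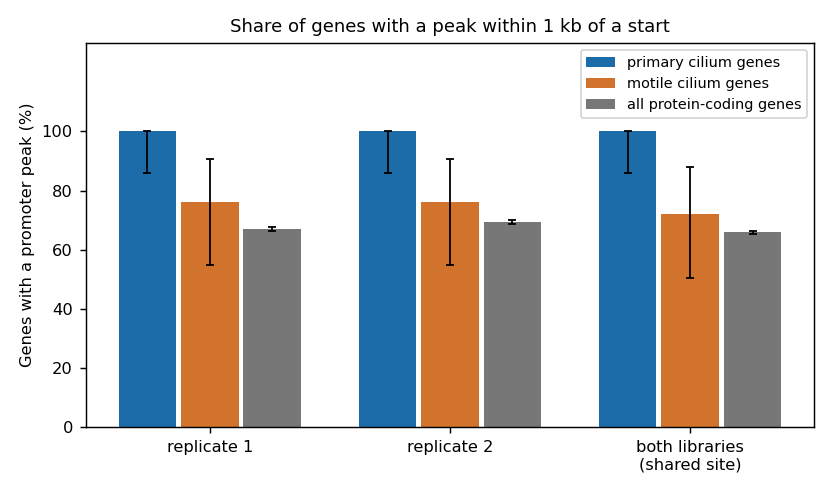
Share of genes with a peak within 1 kb of a start (vertical axis, percent, from 0) in replicate 1, in replicate 2 and, as a shared site, in both libraries; error bars are exact 95% intervals. Primary cilium genes stood at 100% throughout, motile cilium genes between 72.0% and 76.0%, and all protein-coding genes between 65.9% and 69.5%.

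The height of a peak, a whole number given by the authors on a scale not given in the sources used here, was read within a library. Among open genes, the highest promoter peak had a median of 117 in primary cilium genes, 83 in motile cilium genes and 100 in all genes of replicate 1. In replicate 2 the medians were 134.5, 114 and 126. Ranked among the open genes of the same library, the median primary cilium gene stood at percentile 82.4 in replicate 1 and 75.7 in replicate 2, and the median open motile cilium gene at 31.2 and 32.1. Of the 24 primary cilium genes 21 lay above the 50th percentile in each library, against 1 and 3 of the 19 open motile cilium genes. The ranges overlapped: 11 of 19 motile heights in replicate 1 and 5 of 19 in replicate 2 reached the lowest primary height. In replicate 1 that lowest height was the 82 of Ift52, the next primary gene being Bbs1 at 96. Of the motile cilium genes Dnaic1 alone reached the primary median, in both libraries. In bulk tissue, a low height from few cells with an open promoter and one from weak opening in many cells cannot be told apart. In the gene-by-gene values that follow, the height in replicate 1 is given before that in replicate 2.

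**Figure D3:**
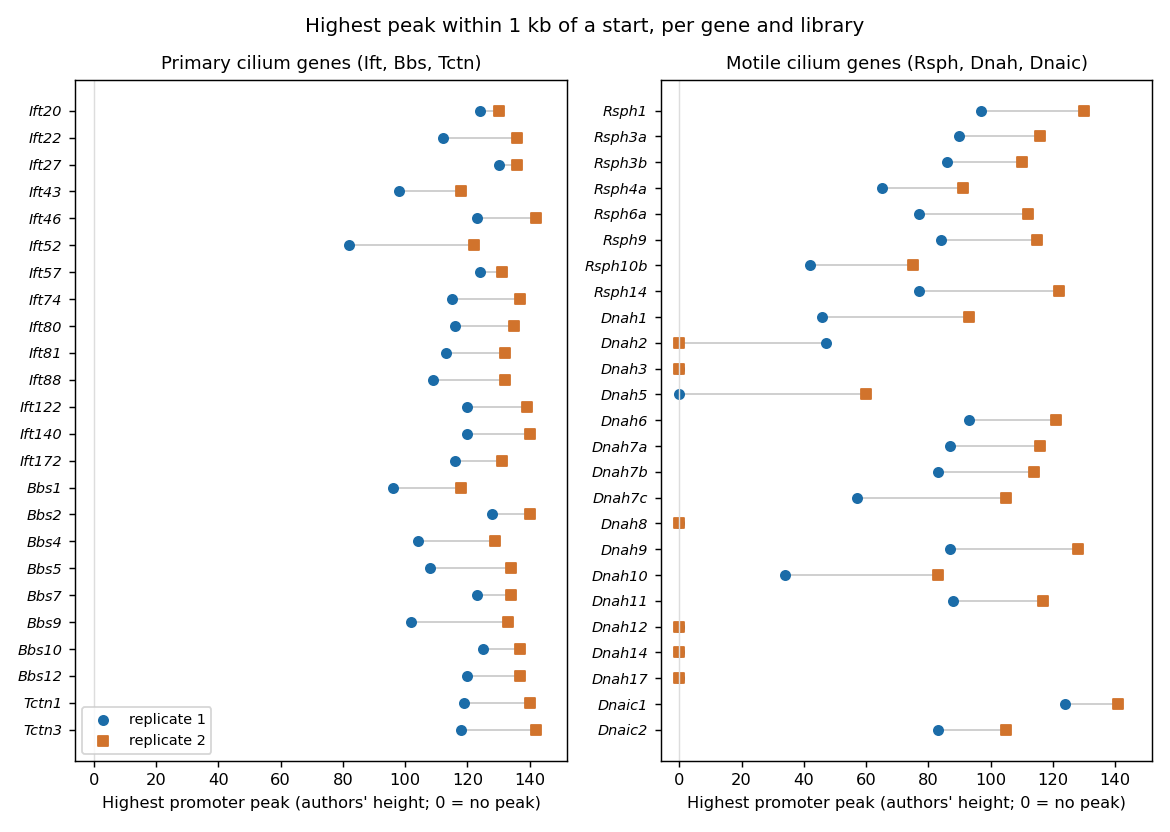
Height of the highest promoter peak (horizontal axis, the authors' units) of each gene (vertical axis), primary cilium genes left and motile cilium genes right, with circles for replicate 1 and squares for replicate 2; a symbol at 0 means no peak, and a square at 0 hides a circle at 0 where no line leads away from it. Primary heights ran from 82 to 130 in replicate 1 and from 118 to 142 in replicate 2, while open motile heights ran from 34 to 124 and from 60 to 141.

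The IFT-B complex drives transport from the base towards the ciliary tip, and its genes were open throughout. Ift88 (start at chr14:57424062, plus strand), the gene mutated in the classic Oak Ridge polycystic kidney mouse, had heights of 109 and 132. Ift172 (start at chr5:31291107, minus strand), the largest IFT-B subunit, had 116 and 131. Ift80 (start at chr3:69004570, minus strand) had 116 and 135. Ift80 lay nearest to the class medians, and the other two lay below them in both libraries. Ift57 (start at chr16:49699233, plus strand) had 124 and 131, with its X-box match 19 bp upstream of the start. Ift20 (start at chr11:78536361, plus strand), whose product also works at the Golgi, had 124 and 130. Ift46 (start at chr9:44772910, plus strand) had 123 and 142, the joint highest replicate 2 value of the members. All 3 were above the primary median in replicate 1.

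Ift74 (start at chr4:94614491, plus strand) had heights of 115 and 137 and Ift81 (start at chr5:122614518, minus strand), whose product pairs with that of Ift74 to bind tubulin, had 113 and 132. Ift52 (start at chr2:163017354, plus strand), part of the IFT-B core, had 82 and 122. The replicate 1 value of Ift52 was the lowest of the primary cilium genes, at percentile 30.4, and its rank in replicate 2 was 42.5. Ift22 (start at chr5:136908150, plus strand) and Ift27 (start at chr15:78174107, minus strand) encode Rab-like small GTPases in this complex. Ift22 had 112 and 136, and both of its X-box matches lay in that peak. Ift27 had 130 and 136, the highest replicate 1 value of the members, from a peak 223 bp upstream of its start (chr15:78174256-78174405).

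The IFT-A complex is needed for return transport and for the entry of several membrane receptors. Ift122 (start at chr6:115853530, plus strand) had 120 and 139. Ift140 (start at chr17:25016391, plus strand) had 120 and 140. Ift43 (start at chr12:86082563, plus strand) had 98 and 118. Ift43 was the weakest of these 3 in both libraries and lay under the median of all open genes in each.

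The Bbs family held 6 BBSome subunit genes and 2 chaperonin-like genes needed for BBSome assembly. Bbs2 (start at chr8:94098928, minus strand) had 128 and 140, from a peak 417 bp downstream of its only annotated start. Bbs7 (start at chr3:36613477, minus strand) had 123 and 134. Bbs5 (start at chr2:69647208, plus strand) had 108 and 134. The first of these was the highest of the family in both libraries. Bbs4 (start at chr9:59353508, minus strand) had 104 and 129. Bbs9 (start at chr9:22475715, plus strand), at 413 kb the longest primary cilium gene, had 102 and 133. Bbs1 (start at chr19:4906628, minus strand) had 96 and 118, the lowest of the family, with its X-box match 8 bp downstream of the start. The chaperonin-like Bbs10 (start at chr10:111298679, plus strand) had 125 and 137. Bbs12 (start at chr3:37312554, plus strand) had 120 and 137, but only 41.7% of the 31-base words within 1 kb of its start occur once in the genome, and the part of this in its height was not tested.

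The tectonic genes of the transition zone were both high. Tctn1 (start at chr5:122264460, minus strand) had 119 and 140 and Tctn3 (start at chr19:40612233, minus strand) had 118 and 142. Tctn2 is a processed transcript and not protein-coding in this annotation, so it fell outside the rule, and its start had peaks of 112 and 122.

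Among the radial spoke genes all 8 were open, and in both libraries all 8 were below the primary median. Rsph1 (start at chr17:31277383, minus strand), a spoke-head gene, had the highest of these values, 97 and 130. Rsph9 (start at chr17:46144216, minus strand), another spoke-head gene and the only motile cilium gene with the inverted repeat, had 84 and 115. Rsph4a (start at chr10:33905111, plus strand), also a spoke-head gene, had 65 and 91. All 3 lay under the median of all open genes in replicate 1. Rsph6a (start at chr7:19054690, plus strand), whose product is known from sperm flagella, had 77 and 112. Rsph14 (start at chr10:75032586, minus strand) had 77 and 122. Rsph10b (start at chr5:143933062, plus strand) had 42 and 75, the lowest of the family in both libraries. The near-identical pair Rsph3a (start at chr17:7945653, plus strand) and Rsph3b (start at chr17:6948356, minus strand) encodes the spoke stalk. Rsph3a had 90 and 116. Rsph3b had 86 and 110. Only 42.3% and 40.2% of the 31-base words around these starts occur once in the genome, and the hotspots, the authors' broader enriched regions, measured 177 bp at each in both libraries, so how reads were divided between these copies is uncertain.

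The outer dynein arm genes varied most. Dnaic1 (start at chr4:41569775, plus strand), which encodes an intermediate chain, had 124 and 141, at percentiles 94.8 and 95.4. Its start lies 238 bp from the divergently transcribed Fam219a, and in replicate 1 the peak centre was nearer to that gene's start than to its own. Dnaic2 (start at chr11:114727412, plus strand), the other intermediate chain gene, had 83 and 105. The heavy chain gene Dnah9 (start at chr11:66168533, minus strand) had 87 and 128, and Dnah11 (start at chr12:118199043, minus strand) had 88 and 117. Dnah5 (start at chr15:28203752, plus strand), a heavy chain gene often mutated in human primary ciliary dyskinesia, had no promoter peak in replicate 1 and a height of 60 in replicate 2, at percentile 6.70. That peak was centred 1 bp from the start (chr15:28203676-28203825). Dnah8 (start at chr17:30624354, plus strand) and Dnah17 (start at chr11:118129219, minus strand), the heavy chain genes known from sperm flagella, had no promoter peak in either library. At Dnah8 only 18.8% of the 31-base words around the starts occur once in the genome, against 100% at Dnah17, and the part of this in the missing peak was not tested.

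Most of the remaining heavy chain genes encode inner arm dyneins. Of these, Dnah6 (start at chr6:73221631, minus strand) had the highest values, 93 and 121. Dnah1 (start at chr14:31323896, minus strand) had 46 and 93. Dnah10 (start at chr5:124725085, plus strand) had 34 and 83, in replicate 1 the lowest height of any open member. Replicate 1 placed Dnah1 and Dnah10 lower among its open genes (percentiles 10.1 and 4.96) than replicate 2 did (16.8 and 12.5). The near-identical copies Dnah7a (start at chr1:53706761, minus strand), Dnah7b (start at chr1:46066738, plus strand) and Dnah7c (start at chr1:46425592, plus strand) were all open. Dnah7a had 87 and 116. Dnah7b had 83 and 114. Dnah7c had 57 and 105. Between 75.7% and 80.6% of the 31-base words around these starts are unique. Dnah2 (start at chr11:69549108, minus strand) had a peak of 47 in replicate 1, 765 bp downstream of its nearest start, and none within 1 kb in replicate 2. Dnah3 (start at chr7:120095177, minus strand), Dnah12 (start at chr14:26693274, plus strand) and Dnah14 (start at chr1:181576559, plus strand) had none in either library.

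Every one of the 42 members open in both libraries was higher in replicate 2, and so were 14313 of the 14393 genes open in both. The median ratio of the members was 1.23, with a range of 1.05 to 2.44, beside 1.26 over all genes open in both. The count thus follows a shift shared by nearly all open genes. Across genes Spearman's rho between libraries was 0.56 within the 24 primary cilium genes, 0.86 within the 18 motile cilium genes open in both, 0.88 for these 42 members pooled and 0.88 for all genes, given as a description because genes are not independent replicates. The ranks of single primary cilium genes moved between libraries, as at Ift20, which stood at percentile 94.8 in replicate 1 and 60.5 in replicate 2. Replicate 2 also held more deposited peaks, 195264 against 150613, with a median height of 50 against 36. Dnah2, in replicate 1, and Dnah5, in replicate 2, were the members open in 1 library alone, each 2.04% of the members. Of all genes, 0.696% were open in replicate 1 only and 3.10% in replicate 2 only. Requiring peaks at or above their library's median height left 24 primary and 17 motile cilium genes open, Dnah10 being the one lost, and shortening the replicate 2 list to the length of the replicate 1 list left 24 and 18.

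Peaks of both classes sat close to the starts. The distance from the highest peak's centre to the gene's own nearest start had a median of 51.5 bp in primary cilium genes, 74.5 bp in motile cilium genes and 66.5 bp in all genes of replicate 1, and of 45.0, 51.5 and 66.5 bp in replicate 2. In each library 22 of 24 primary cilium genes (91.7%) and 16 of 19 open motile cilium genes (84.2%) had their highest peak within 200 bp of a start. Among all open genes the share was 78.1% in replicate 1 and 77.6% in replicate 2, so such closeness was common to open promoters. The hotspots over these promoters had a median length of 924 bp in primary and 445 bp in motile cilium genes in replicate 1, and of 1375 and 991 bp in replicate 2. The authors' -log10 false discovery rate, which they wrote as 100 for the strongest hotspots, was 100 at all 24 primary cilium genes and at 18 of the 19 open motile cilium genes in each library. Over all hotspots, at promoters or elsewhere, the median length was 235 bp in replicate 1 and 259 bp in replicate 2. Of these, 36.4% and 35.3% stood at 100. Hotspots over the promoters of all genes were not measured, so whether the members' values are unusual for promoters is not known.

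Some primary cilium starts are shared with a neighbour. A divergently transcribed protein-coding start within 1 kb was annotated for 6 of 24 primary cilium genes (25%), 2 of 25 motile cilium genes (8.0%) and 9.00% of all genes. The pairs were Ift20 with Tnfaip1 at 29 bp, Ift122 with Mbd4 at 99 bp, Bbs12 with Cetn4 at 108 bp, Tctn3 with Entpd1 at 164 bp, Ift80 with Smc4 at 168 bp and Ift140 with Cramp1l at 297 bp. On the motile side they were Dnah8 with Glo1 at 64 bp and Dnaic1 with Fam219a. The highest peak was nearer to the neighbour's start at Ift20, Bbs12 and Tctn3 in both libraries and at Ift140 in replicate 2. Giving each peak to its nearest start only left 22 primary and 18 motile cilium genes open in both libraries, with Ift20 and Tctn3 lost and a difference of 19.7 points. The 18 primary cilium genes without such a neighbour were all open, against 17 of 23 motile cilium genes (73.9%) and 62.9% of all genes without one. With such a neighbour, 6 of 6 primary cilium genes, 1 of 2 motile cilium genes and 96.1% of all genes were open. The closed one was Dnah8, where 18.8% of the 31-base words are unique.

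The classes also differed in promoter CpG content. CpG dinucleotides are dense in the promoters of most widely expressed genes. The ratio of observed to expected CpG over the 1001 bp around the principal start had a median of 0.70 in primary cilium genes (range 0.56 to 0.98), 0.43 in motile cilium genes (0.15 to 0.78) and 0.57 in all genes. The 18 motile cilium genes open in both libraries had a median of 0.50 (0.25 to 0.78), and the 7 others 0.29 (0.15 to 0.42). The ends of the range are given here by the 300 bases around the start, Ift140 with the highest ratio over 1001 bp and Dnah17 with the lowest, each CpG in capitals. The Ift140 stretch holds 12 CpG and the Dnah17 stretch 4.
Ift140 (chr17:25016141-25016440, plus strand): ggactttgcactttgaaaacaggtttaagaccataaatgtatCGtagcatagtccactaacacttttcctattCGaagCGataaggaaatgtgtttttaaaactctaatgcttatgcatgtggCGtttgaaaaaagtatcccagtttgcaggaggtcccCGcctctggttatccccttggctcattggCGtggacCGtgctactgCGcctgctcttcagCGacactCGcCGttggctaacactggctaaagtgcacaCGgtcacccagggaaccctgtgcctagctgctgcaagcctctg
Dnah17 (chr11:118129170-118129469, minus strand): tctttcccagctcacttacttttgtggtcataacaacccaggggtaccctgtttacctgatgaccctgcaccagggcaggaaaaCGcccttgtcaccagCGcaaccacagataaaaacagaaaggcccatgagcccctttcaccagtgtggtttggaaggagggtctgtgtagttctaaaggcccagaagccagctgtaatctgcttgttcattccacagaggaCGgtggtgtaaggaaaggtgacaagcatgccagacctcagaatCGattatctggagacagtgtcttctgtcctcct
The sequences were read from the RefSeq copy of GRCm38.p6, the build of mm10, and each runs 5′ to 3′ on the strand of its gene.

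Within bands of CpG ratio that held both classes every member was open, and the motile heights were lower at the median. Between ratios of 0.5 and 0.75, 16 of 16 primary and 6 of 6 motile cilium genes were open in both libraries, beside 94.5% of all genes. Above 0.75, 8 of 8 primary and 2 of 2 motile cilium genes were open, beside 98.7% of all genes. Below 0.5 there were no primary cilium genes. Between 0.25 and 0.5, 9 of 13 motile cilium genes were open (69.2%, exact 95% interval 38.6 to 90.9), beside 54.7% of all genes, and below 0.25 only Rsph14 of 4, beside 11.6% of all genes. All 7 closed motile genes thus lay in bands with no primary cilium gene, and class and CpG content cannot be told apart there. In the band from 0.5 to 0.75 the median height was 118 in primary cilium genes, 90.5 in open motile cilium genes and 99 in all genes of replicate 1, and 136, 124 and 125 in replicate 2. Above 0.75 the medians were 116 in primary cilium genes, 88 in motile cilium genes and 109 in all genes of replicate 1, and 132, 113 and 132 in replicate 2. With 6 and 2 motile cilium genes in these bands, the medians rest on few values.

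**Figure D4:**
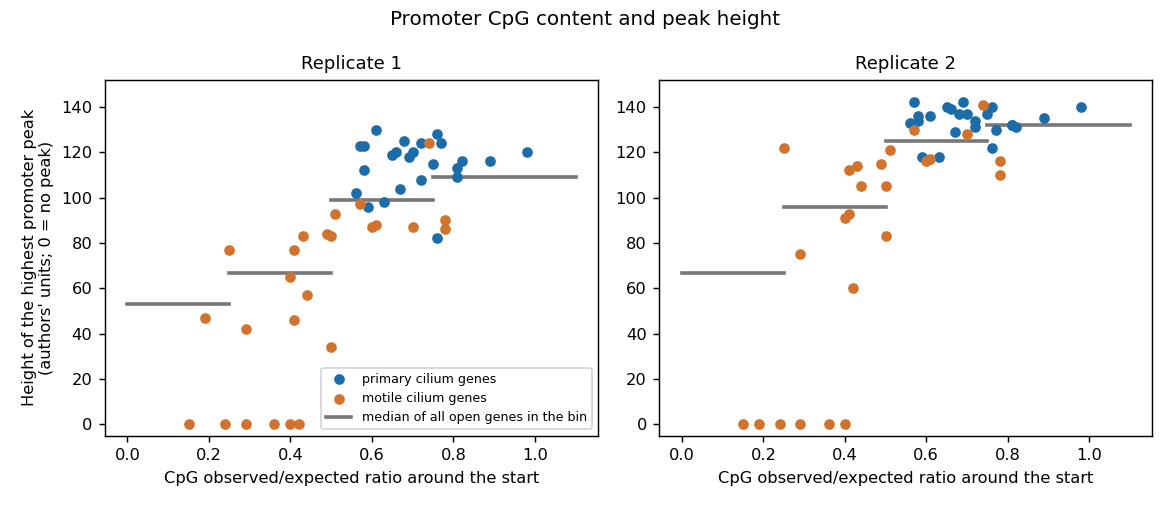
Height of the highest promoter peak (vertical axis, the authors' units, 0 for no peak) against the CpG observed to expected ratio of 1001 bp around the start (horizontal axis) in replicate 1 (left) and replicate 2 (right); each point is a gene, and grey lines are the medians of all open genes in 4 bands of CpG ratio. Every primary cilium gene lies at 0.56 or above, and the motile cilium genes without a peak all lie at 0.42 or below.

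Away from promoters the motile cilium genes had the higher mean, carried by the dynein genes. Shared sites over 1 kb from any protein-coding start, given to the nearest start within 100 kb, averaged 1.58 ± 1.74 per primary cilium gene (SD over 24 genes), 3.20 ± 2.27 per motile cilium gene (SD over 25 genes) and 2.52 ± 3.75 over all genes. Counted from the peaks of 1 library alone, the means were 2.75 to 2.83 per primary and 5.60 to 6.24 per motile cilium gene. By family the mean of shared sites was 1.43 for Ift, 2.12 for Bbs, 0.50 for Tctn, 1.12 for Rsph, 4.0 for Dnah and 5.50 for Dnaic genes, so that the radial spoke genes lay below the primary mean. None at all were found for 10 of the 24 primary cilium genes (41.7%) and 2 of the 25 motile cilium genes (8.0%), beside 36.3% of all genes. The median gene length was 31.2 kb in primary cilium genes, 109 kb in motile cilium genes and 17.4 kb in all genes. Per 100 kb of gene body, primary cilium genes held 1.81 such sites (25 in all), motile cilium genes 2.46 (93 in all) and all genes 3.37, so that per length both classes were below all genes. Of the 93 sites in motile cilium genes 79 were intronic and 14 overlapped an exon, and 36 were nearer to the start of another gene. Of the 25 in primary cilium genes 24 were intronic, and 9 lay in Bbs9, the strongest 233 kb into that gene (chr9:22709076-22709225, heights 83 and 105).

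Several genes with a closed promoter held sites in their bodies. Dnah8 held 15 shared sites and Dnah2 held 12. Per 100 kb of gene body these were 5.93 and 9.35, beside 3.37 over all genes. The other closed genes ran from 0.373 (Dnah5) to 5.51 (Dnah17) per 100 kb, and the highest member was the open Dnaic2 at 13.1. Some of the Dnah8 sites were nearer to the start of Glp1r, and some of the Dnah2 sites to that of Kdm6b. At Dnah2 a cluster of 4 intronic sites lay between 1.86 and 2.95 kb downstream of the principal start. The strongest of the 4 (chr11:69546836-69547045) had heights of 89 and 114, and the nearest to the start (chr11:69547176-69547325) had 61 and 90. A window of 2500 bp would therefore call Dnah2 open in both libraries, giving 24 primary and 19 motile cilium genes. Dnah17 held 6 shared body sites, of which an intronic one 25 kb downstream (chr11:118104116-118104285) reached 90 and 90. The strongest body site of any member was intronic in Dnah11, 205 kb downstream of its start (chr12:117993596-117993745), with heights of 99 and 116, and its nearest protein-coding start was that of Cdca7l. Dnaic2, 30.5 kb long, held 4 sites, the strongest 17.9 kb downstream (chr11:114745196-114745385) with 78 and 109.

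For the other closed genes the nearest shared site was farther off. It lay 2.78 kb upstream at Dnah3 (80 and 94), 4.06 kb upstream at Dnah17 (26 and 35), 4.78 kb downstream at Dnah12 (31 and 43) and 6.70 kb downstream at Dnah14 (23 and 31). At Dnah8 it lay 11.1 kb downstream (45 and 73) and at Dnah5 15.4 kb upstream (62 and 90). Which gene such a site acts on was not measured.

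**Figure D5:**
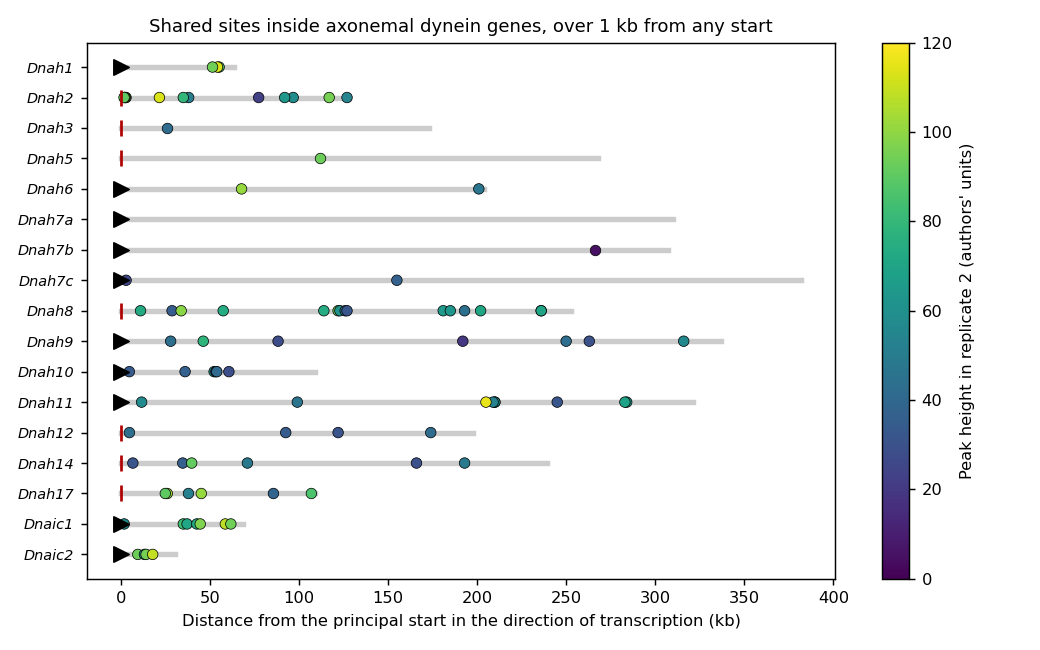
Shared sites over 1 kb from any protein-coding start inside the 15 Dnah and 2 Dnaic genes, by distance from the principal start in the direction of transcription (horizontal axis, kb); grey lines show the gene's length, circle colour the height in replicate 2, black triangles promoters open in both libraries and red bars promoters that were not. The closed genes Dnah8 and Dnah2 carry 15 and 12 sites, and the 4 circles of the Dnah2 cluster merge beside its start at this scale.

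Further known components of the same machinery were counted in the same way. All 9 further IFT genes were open in both libraries, the highest being Ttc21b (121 and 137) and Wdr19 (115 and 133), both of the IFT-A complex. All 8 genes of the kinesin-2 and dynein-2 motors were open, led by Wdr34 (126 and 135), a dynein-2 intermediate chain gene, and Kifap3 (110 and 135), the kinesin-associated subunit gene. All 5 further BBSome genes were open, led by Bbip1 (124 and 144), a BBSome subunit gene, and Lztfl1 (126 and 140), which encodes a regulator of BBSome traffic. All 14 further transition zone genes were open, led by Cep290 (119 and 139) and Rpgrip1l (120 and 139). All genes were open in 65.9% of cases, and in 94.5% of cases at CpG ratios from 0.5 to 0.75, the band that holds the median ratio of these 36 genes (0.71). Together the 36 genes had median heights of 110 and 132, and 9 (25%) held the inverted RFX repeat, beside 1.91% of all promoters: Cluap1, Ttc26, Wdr19, Dync2li1, Arl6, Ahi1, Mks1, Nphp4 and Tmem216.

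On the motile side, 16 of 17 further axoneme genes were open in both libraries. Dnali1, an inner arm light chain gene, and Mns1, a gene of an inner axonemal protein, were the highest, each at 120 and 137. Spag17, a central pair gene, had no peak in replicate 1 and 48 in replicate 2. All 9 genes listed as dynein assembly factors were open, led by Ccdc151 (126 and 139), whose product helps to dock outer arms, and Dnaaf5 (123 and 138), whose product acts in the cytoplasm before transport. These 26 genes had median heights of 96.0 and 121 where open, and 4 (15.4%) held the inverted repeat: Spag6l, Ccdc151, Dnaaf5 and Zmynd10. The shares open, 36 of 36 and 25 of 26, stood beside 65.9% of all genes, and the repeat was held by 1.91% of all promoters. The median CpG ratio of the 26 genes was 0.53, in the band from 0.5 to 0.75, where 94.5% of all genes were open. The share open in these 26 genes thus lay close to that of all genes in the band. The median heights lay higher on the primary side in both libraries. The shares open differed far less between these lists than the 28 points between the member classes. The repeat also differed less, at 25% and 15.4% here against 29.2% and 4.0% in the member classes.

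Of the 13 regulators of ciliogenesis 12 were open in both libraries, beside 65.9% of all genes. Their CpG ratios ran from 0.64 (Gmnc) to 0.96 (E2f5). Of all genes, 94.5% were open at ratios from 0.5 to 0.75 and 98.7% above 0.75, so the count does not stand out. Rfx2 (127 and 144) and Rfx1 (126 and 140) were the highest. Foxj1, the forkhead regulator of motile cilia, had 107 and 131, and its promoter and that of Ccno were the 2 of the list with the inverted RFX repeat. Gmnc, which acts at the start of the multiciliated programme, had no peak in replicate 1 and 60 in replicate 2. Of the 6 multiciliated cell markers 5 were open in both libraries, with Ccno at 103 and 118, Tekt1 at 94 and 120, Mcidas at 70 and 90 and Tekt2 at 29 and 54 beside Foxj1. Of the 10 hindbrain and neural progenitor markers 8 were open in both, led by Sox2 (115 and 135), while Hoxa2 (116) and Hoxb2 (102) had a promoter peak in replicate 2 only. Both marker counts stand beside the same 65.9% of all genes. The CpG ratios ran from 0.40 (Hoxb2) to 0.96 (Sox2) in the hindbrain markers. In the multiciliated markers they ran from 0.47 (Tekt2) to 0.86 (Ccno), and most markers of both lists lay above 0.5. Beside the 94.5% and 98.7% of all genes open there, and 54.7% from 0.25 to 0.5, neither count stands out. Open promoters do not measure transcription, and RNA was not examined.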

How the data were processed

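The DNase-seq libraries of the 2 biological replicates were each deposited as a list of peaks and a list of hotspots in build mm10, made per replicate per the text deposited beside the files. Aligner, callers, versions and filters were not given in the sources used here, nor was read depth. The deposited signal per peak is the authors' peak height, whose scaling is not given, and the deposited hotspot value is the authors' -log10 of a false discovery rate estimate. The files give no read counts, so depth per sample is unknown and intervals cover counting error only.

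The autosomes, X and Y were analysed (150176 in replicate 1 and 194873 in replicate 2), and coordinates were made 1-based. Peaks of both libraries overlapping by at least 1 bp formed shared sites. Starts were the 41438 starts of protein-coding transcripts in the GENCODE M21 basic set, with the APPRIS principal start, or else the 5′-most, as the principal start. Promoter sequence, CpG ratio, motifs and 31-base word counts came from the GRCm38.p6 sequence of RefSeq. The words were counted over chromosomes and additional scaffolds of that sequence, so a copy on such a scaffold made a word not unique. Exact Clopper-Pearson intervals at 95% were given for shares. Python 3.11.15, numpy 2.4.6, pandas 2.3.3, scipy 1.17.1 and matplotlib 3.10.9 were used. The code that assigns peaks to promoters was checked on simulated data, in which 200 of 200 placed sites were recovered among 21851 genes. The sites were placed near starts, overlapped between both simulated libraries and held no noise. The check therefore does not show how many open promoters the deposited peaks miss.

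The members and lists were chosen with earlier results of these data known. All members were accounted for, and both heights are given for each with a peak. Of each further list, the genes without a peak in both libraries and the 2 with the highest mean height are named, together with motif-bearing genes and the multiciliated markers. Of the marker lists, 1 gene is not reported here. The body sites named in the text were chosen after their heights were seen. Alternatives varied the promoter window, peak height, overlap, assignment to starts, list length, copies and motif.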

Additional observations from a re-analysis of the deposited data

How the results depend on the processing

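No paired analysis was possible because the study has 1 group, with no second group to share replicate numbers. The counts of 24 primary and 18 motile cilium genes open in both libraries ranged from 22 to 24 and from 13 to 19 over the alternatives, where 13 of 20 came from leaving out the near-identical copies Dnah7a, Dnah7b, Dnah7c, Rsph3a and Rsph3b, and the difference ranged from 19.7 to 35.0 percentage points, always higher in primary cilium genes. With either library alone the difference was 24 points. Leaving out members under 50% unique words, chosen after seeing the data, gave 27.3 points. Over the alternatives the median height of primary cilium genes ran from 115.5 to 117 in replicate 1 and from 133.0 to 134.5 in replicate 2. That of motile cilium genes ran from 77.00 to 83.50 and from 105.0 to 114.0. These moves were smaller than the SD between the 2 libraries' medians. That SD also holds any difference in scale between the libraries, so it is a lenient yardstick. Entering closed genes at height 0 gave motile medians of 77.00 and 105.0. With a gap of 3 bases the RFX repeat was found in 0% of both classes, and with a gap of 2 bases in 4.0% of motile cilium promoters, against 20% for the single arm, which was found in 28% with 150 bases to each side of the start and in 45.8% of primary cilium promoters in both windows. With a limit of 50 kb, distal shared sites averaged 1.38 per primary and 2.60 per motile cilium gene. The peaks of 1 library alone averaged 2.75 to 2.83 per primary and 5.60 to 6.24 per motile cilium gene, as peaks found in 1 library then also count. Unknown depth limits what the absence of a peak shows.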
